A study of Saccharomyces cerevisiae with 16 samples.

Results

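The 10 genes described here belong to the iron regulon of budding yeast (Saccharomyces cerevisiae): FIT1, FIT2, FIT3, FET3, FTR1, ARN1, ARN2, SIT1, TIS11 and HMX1. They were taken by name from the array annotation, 1 probe set each, out of 5449 S. cerevisiae genes measured. 8 of the 10 passed the filter that left out the dimmest 20% of genes by mean signal and entered the test of 4359 genes. FIT1 and HMX1 lay below that filter, and TIS11 lay just inside it, at percentile 20.5 of the mean signal, against 15.8 for HMX1 and 9.29 for FIT1.

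The iron regulon is switched on by the transcription factors Aft1 and Aft2 when iron is scarce. Its products bind iron carriers in the cell wall, reduce and import iron at the plasma membrane, take up iron bound to siderophores (small iron chelators that many microbes release), free iron from haem, and lower the mRNAs of proteins that consume iron. In iron-rich medium iron-sulphur clusters made in mitochondria are sensed by the glutaredoxins Grx3 and Grx4 with Bol2 and Fra1, and Aft1 leaves its promoters.

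The cells were MATalpha W303 yeast grown in YPD, an iron-replete rich medium, at 30 degrees. Taf4 carries the FRB tag (TAF4-FRB::HYGRO), the ribosomal protein Rpl13a the FKBP12 tag (RPL13A-2xFKB12::TRP1), and all cells also carry tor1-1 and the disruption fpr1::NAT. In this anchor-away design rapamycin ties the tagged Taf4, a subunit of the general transcription factor TFIID, to Rpl13a, which carries it out of the nucleus, and tor1-1 with the loss of FPR1 keeps the drug from stopping growth. Cultures received rapamycin or its solvent DMSO for 30 min, at 1 µg/mL by the treatment protocol and 5 µM by the design text, and 4-thiouracil at 5 mM for 6 min. RNA that had taken up 4-thiouracil was purified as newly synthesized RNA, and total RNA served as steady-state RNA. As a spike-in, each 3 parts of these cells received 1 part of labelled wild-type fission yeast (Schizosaccharomyces pombe). The 4 groups compared were newly synthesized RNA with rapamycin, newly synthesized RNA with DMSO, steady-state RNA with rapamycin and steady-state RNA with DMSO, all labelled Taf4, with 2 arrays each. All 4 carry the same tagged strain, and no untagged strain with rapamycin was analysed here, so the drug and the depletion cannot be told apart. The labels do not tell whether the 2 arrays of a group stem from separate cultures, and p-values reflect only how far these samples spread, possibly for technical reasons.

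6 of the 8 columns labelled Taf5 equalled a Taf4-labelled column divided by 5, within 0.001 signal units, under the other fraction label, and were left out. The 6 arrays concerned thus stand under both fraction labels, and the files do not tell which one is right. The Taf4 labels are used throughout. If these labels were exchanged for all 8 arrays, the newly synthesized and steady-state values would change places and every difference between the fractions would turn its sign. The uncopied Taf5-labelled arrays were newly synthesized RNA with rapamycin replicate 2 and steady-state RNA with DMSO replicate 2, for which the genotype label also names TAF4-FRB and whose fraction labels are in the same doubt. The mRNA of TAF4, the tagged gene, was 2.54-fold lower with rapamycin than with DMSO in newly synthesized RNA and 2.83-fold lower in steady-state RNA. Most genes fell too, by the medians given below. With arrays scaled to equal S. cerevisiae medians the steady-state change of TAF4 was -0.23 on the log2 scale (adjusted p = 0.27, limma). These are mRNA levels and say nothing of the protein. In newly synthesized RNA with rapamycin TAF4 had a mean log2 signal of 5.61. That lay near background, as MFA1, a pheromone gene of MATa cells, had 5.14 there. The 4 markers of MATalpha cells, the labelled mating type, had a summed log2 signal of 13.3 to 15.1 on the 8 Taf4-labelled arrays, and the 6 markers of MATa cells one of 6.91 to 8.91, with all 6 below the filter. The same fit on 1396 S. pombe probe sets called 0 by limma between rapamycin and DMSO in newly synthesized RNA (45 at an unadjusted p under 0.05), and 306 lower and 452 higher in steady-state RNA. Values below are log2 signal after each array was shifted to the same S. pombe median. On that scale the median of all genes tested was -0.78 with rapamycin relative to DMSO in newly synthesized RNA and -1.17 in steady-state RNA. In these bulk cultures fewer cells and less RNA per cell cannot be told apart.

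Against this general fall the iron regulon genes split. In newly synthesized RNA FIT2 was higher with rapamycin, ARN2 and SIT1 were lower, and the other 5 tested genes did not pass the test (limma, Benjamini-Hochberg adjusted p under 0.05 over all genes). That is 2 lower and 1 higher of 8 tested, where 79.4% of all genes tested were lower and 1.79% higher. In steady-state RNA FIT2 was again higher, FTR1, ARN1, ARN2 and SIT1 were lower, and 3 genes did not pass, where 86.8% of all genes were lower and 1.42% higher. The median change of the 8 tested genes was -0.09 in newly synthesized RNA and -0.61 in steady-state RNA. 7 of the 8 lay above the median of all genes in newly synthesized RNA (8 without DMSO replicate 2 and 6 without rapamycin replicate 2) and 5 of the 8 in steady-state RNA.

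**Figure D1:**
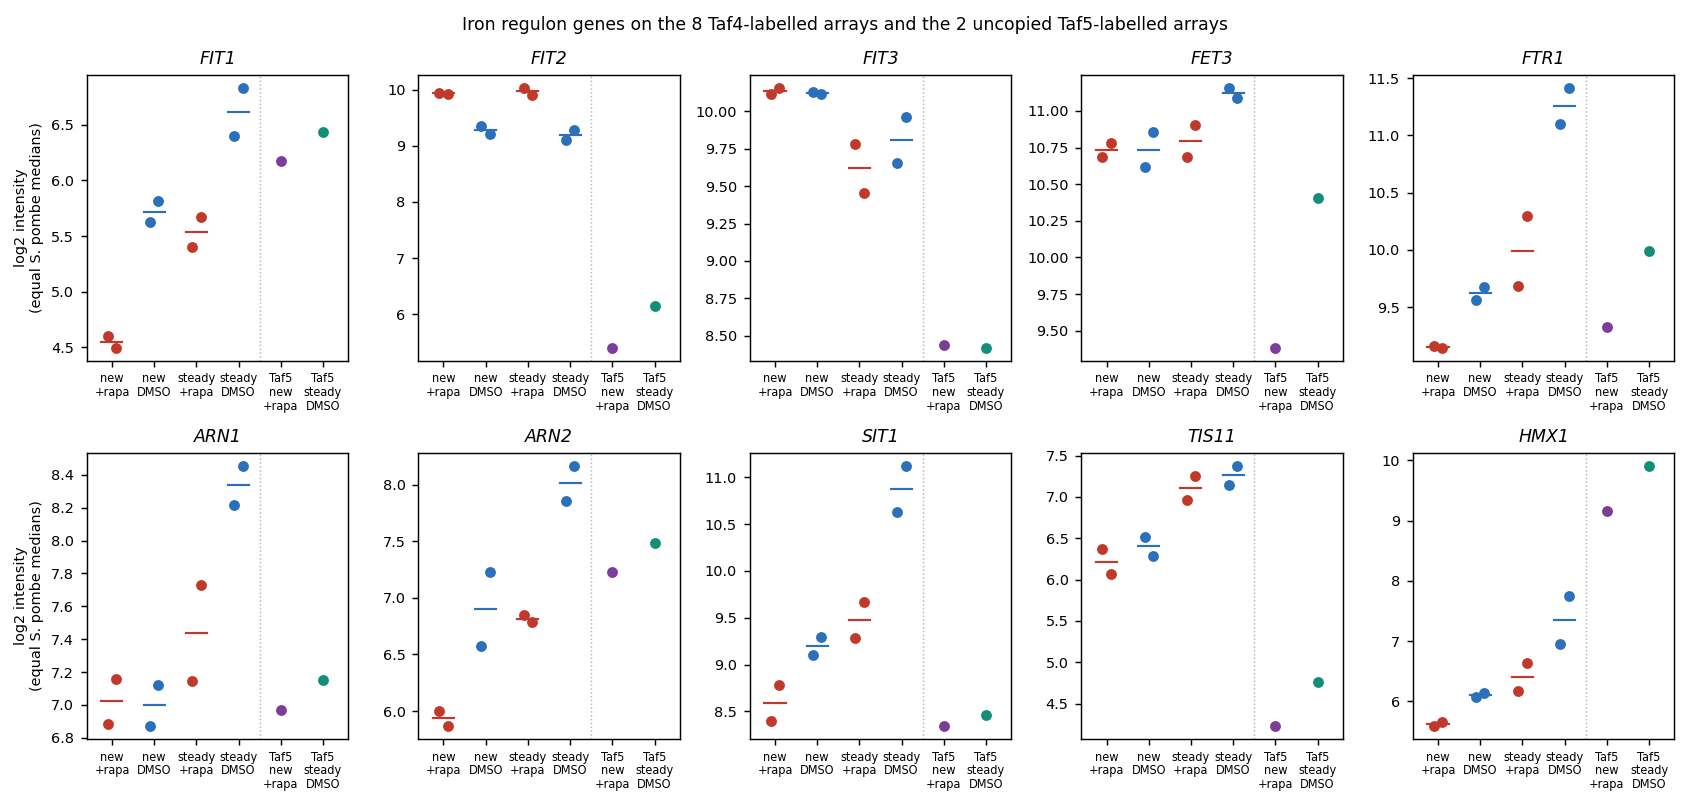
Log2 signal (vertical axis, S. pombe medians equal) of the 10 iron regulon genes, 1 panel a gene, each with its own axis range. Points are arrays, bars the means of the 2 Taf4-labelled arrays of a group, red with rapamycin and blue with DMSO, and the points right of the dotted line are the uncopied Taf5-labelled arrays. FIT2 was higher with rapamycin in both fractions, while every gene but FIT2 and FIT3 had its highest Taf4-labelled mean in steady-state RNA with DMSO.

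The FIT genes encode mannoproteins anchored in the cell wall that help to retain siderophore-bound iron. FIT2 (YOR382W) had 9.95 and 9.93 in newly synthesized RNA with rapamycin, against 9.35 and 9.21 with DMSO. In steady-state RNA it had 10.04 and 9.90 with rapamycin, against 9.11 and 9.28 with DMSO. In both fractions the rapamycin arrays lay above the DMSO arrays, with no overlap. The change was 0.66 (SE 0.21, adjusted p = 0.00607, limma, n = 2 each), or 1.58-fold, in newly synthesized RNA and 0.77 (SE 0.21, adjusted p = 0.00108, limma), or 1.71-fold, in steady-state RNA. FIT2 ranked 53 from the top among 4359 genes in the first and 35 in the second. In newly synthesized RNA the call was lost without DMSO replicate 2 (adjusted p = 0.0814, limma) or without rapamycin replicate 1 (0.0529). In steady-state RNA it kept its call without any 1 of the 4 arrays compared (adjusted p between 0.00135 and 0.00741), and was lost under a loess scaling through the S. pombe probe sets (change 0.14, adjusted p = 0.587).

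FIT3 (YOR383C) is the neighbour of FIT2 on chromosome XV. It had 10.11 and 10.16 in newly synthesized RNA with rapamycin, against 10.13 and 10.11 with DMSO. Those groups overlapped, and the change of 0.02 (SE 0.22) had an adjusted p of 0.944 by limma. In steady-state RNA FIT3 had 9.78 and 9.46 with rapamycin, against 9.65 and 9.96 with DMSO, which also overlapped (change -0.19, SE 0.22, adjusted p = 0.403, limma). Relative to the median of all genes FIT3 was 0.80 higher in newly synthesized RNA and 0.98 higher in steady-state RNA. Under the loess scaling FIT3 was lower with rapamycin in steady-state RNA (change -0.92, adjusted p = 0.000435, limma), and 0.64 above the median of all genes.

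FIT1 (YDR534C) was too dim for the filtered test. It had 4.60 and 4.50 in newly synthesized RNA with rapamycin, against 5.62 and 5.81 with DMSO, and 5.40 and 5.67 in steady-state RNA with rapamycin, against 6.39 and 6.83 with DMSO. Each rapamycin pair lay below its DMSO pair. Tested with no filter, the changes were -1.17 (adjusted p = 0.00226, limma) and -1.08 (adjusted p = 0.000941). With rapamycin FIT1 had means of 4.55 and 5.54 in these fractions, where MFA1, a pheromone gene of MATa cells, had 5.14 and 5.28. STE6, the brightest MATa marker in steady-state RNA, had 5.87 there with rapamycin and 7.17 with DMSO, against FIT1 means of 5.54 and 6.61. FIT1 is thus not shown to be above background with rapamycin, nor in steady-state RNA with DMSO. The 3 FIT genes had 1 higher and 1 with no call, and 1 dim member that was lower when tested, within this limit.

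FET3 encodes the multicopper ferroxidase and FTR1 the iron permease that together form the high-affinity reductive iron uptake system of the plasma membrane. FET3 (YMR058W) had 10.69 and 10.78 in newly synthesized RNA with rapamycin, against 10.61 and 10.85 with DMSO, so the rapamycin arrays fell inside the DMSO range and the change was -0.0018 (SE 0.21, adjusted p = 0.993, limma). In steady-state RNA it had 10.68 and 10.91 with rapamycin, against 11.16 and 11.09 with DMSO, with no overlap, and a change of -0.33 (SE 0.21) that did not pass (adjusted p = 0.144). Under the loess scaling the steady-state change of FET3 was -1.28 and passed (adjusted p = 1.04e-06, limma). FTR1 (YER145C) had 9.16 and 9.15 in newly synthesized RNA with rapamycin, against 9.57 and 9.68 with DMSO. The arrays did not overlap, and the change of -0.47 (SE 0.23) missed the threshold (adjusted p = 0.0544, limma). It passed with a filter at 40%, with an intensity trend or in a fit on only the 4 arrays compared. In steady-state RNA FTR1 had 9.69 and 10.30 with rapamycin, against 11.10 and 11.42 with DMSO, which is 2.41-fold lower (-1.27, SE 0.23, adjusted p = 4.41e-06, limma). Relative to the median of all genes the steady-state change was -0.09 for FTR1 and 0.84 for FET3. Under the loess scaling these values were -0.46 and 0.28, and for FTR1 the value was 0.05 without rapamycin replicate 1 and -0.23 without rapamycin replicate 2.

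ARN1, ARN2 and SIT1 encode transporters of the plasma membrane and of vesicles that take up iron bound to siderophores of other microbes, ferrioxamine B in the case of SIT1. SIT1 (YEL065W) had 8.40 and 8.78 in newly synthesized RNA with rapamycin, against 9.10 and 9.30 with DMSO. In steady-state RNA it had 9.29 and 9.67 with rapamycin, against 10.63 and 11.12 with DMSO. The rapamycin arrays were the lower ones in both fractions, by 1.53-fold in newly synthesized RNA (-0.61, SE 0.23, adjusted p = 0.0153, limma) and by 2.63-fold in steady-state RNA (-1.40, SE 0.23, adjusted p = 1.13e-06). The call in newly synthesized RNA was lost without DMSO replicate 2 (adjusted p = 0.126) or rapamycin replicate 1 (0.202). Arrays scaled to the same S. cerevisiae median gave SIT1 a change of 0.21 there, on the other side of 0. In steady-state RNA that scaling gave -0.13 (adjusted p = 0.455, limma). Relative to the median of all genes the steady-state change of SIT1 was -0.22, and -0.45 under the loess scaling.

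ARN2 (YHL047C) had 6.00 and 5.87 in newly synthesized RNA with rapamycin, against 6.57 and 7.23 with DMSO, with DMSO replicate 2 the higher of its pair. In steady-state RNA it had 6.85 and 6.79 with rapamycin, against 7.86 and 8.17 with DMSO. The newly synthesized rapamycin readings of ARN2, with a mean of 5.94, lay near background, as MFA1 had a mean of 5.14 there. ARN2 was 1.95-fold lower in newly synthesized RNA (-0.96, SE 0.23, adjusted p = 0.000442, limma) and 2.29-fold lower in steady-state RNA (-1.19, SE 0.23, adjusted p = 1.21e-05). Without DMSO replicate 2 the first call was lost (change -0.64, adjusted p = 0.061). ARN2 alone among the 8 tested genes fell below the median of all genes in newly synthesized RNA, by 0.19; without DMSO replicate 2 it lay 0.07 above that median, and without rapamycin replicate 2 SIT1 also lay below it, at -0.02.

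ARN1 (YHL040C) had 6.89 and 7.16 in newly synthesized RNA with rapamycin, against 6.87 and 7.12 with DMSO. The pairs overlapped almost fully (change 0.03, SE 0.23, adjusted p = 0.914, limma). In steady-state RNA ARN1 had 7.15 and 7.73 with rapamycin, against 8.22 and 8.45 with DMSO, without overlap and 1.86-fold lower (-0.90, SE 0.23, adjusted p = 0.000452). With equal S. cerevisiae medians the steady-state changes of ARN1 (0.37), ARN2 (0.074) and FTR1 (0.0020) lay above 0. Relative to the median of all genes ARN1 was 0.80 higher in newly synthesized RNA and 0.28 higher in steady-state RNA, where it was 0.16 without rapamycin replicate 2 and 0.68 under the loess scaling.

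TIS11, also called CTH2, encodes an RNA-binding protein that brings about decay of mRNAs of iron-consuming proteins when iron is short, and HMX1 encodes a haem oxygenase that frees iron from haem. TIS11 (YLR136C) had 6.37 and 6.06 in newly synthesized RNA with rapamycin, against 6.52 and 6.29 with DMSO, and 6.96 and 7.25 in steady-state RNA with rapamycin, against 7.15 and 7.38 with DMSO. The pairs overlapped in both fractions, with changes of -0.19 (SE 0.22, adjusted p = 0.421, limma) and -0.15 (SE 0.22, adjusted p = 0.506). These lay 0.59 and 1.02 above the medians of all genes. HMX1 (YLR205C), below the filter, had 5.59 and 5.65 in newly synthesized RNA with rapamycin, against 6.08 and 6.14 with DMSO. In steady-state RNA it had 6.18 and 6.64 with rapamycin, against 6.96 and 7.75 with DMSO. Tested with no filter, HMX1 had changes of -0.49 (adjusted p = 0.122, limma) and -0.95 (adjusted p = 0.00706). Mean readings in newly synthesized RNA with rapamycin were 5.62 for HMX1 and 6.22 for TIS11, where MFA1 had 5.14. In steady-state RNA with DMSO they were 7.35 and 7.26, where the MATa marker STE6 had 7.17. Both genes thus lay near background in these groups, which limits what their changes show.

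**Figure D2:**
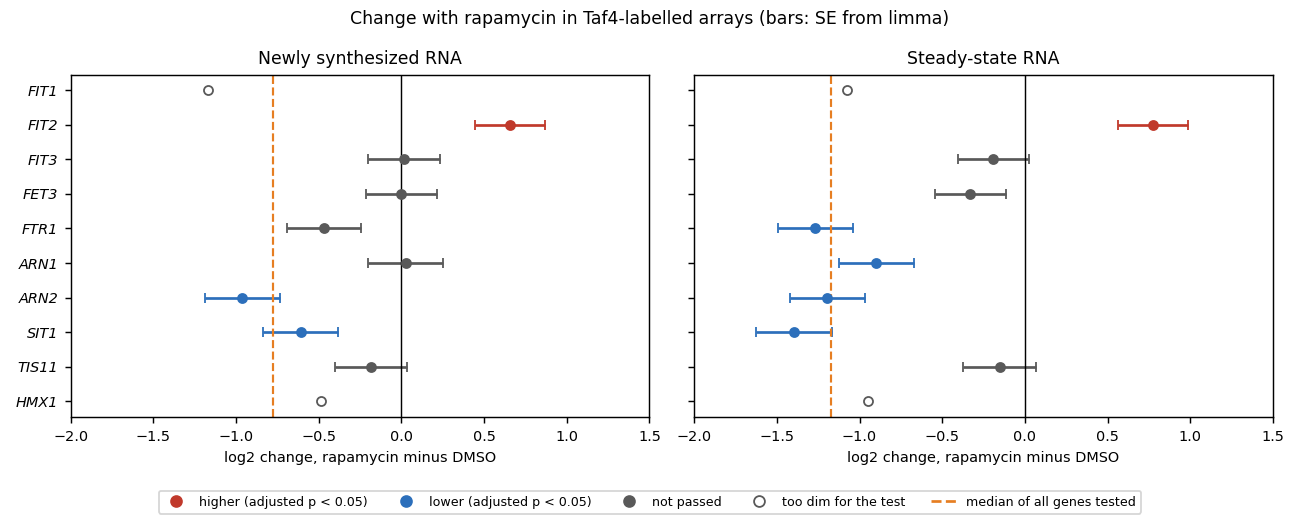
Change with rapamycin relative to DMSO (log2, horizontal axis) for each iron regulon gene in newly synthesized RNA (left) and steady-state RNA (right), Taf4-labelled arrays, n = 2 each. Bars are SEs from limma, open circles are genes too dim for the filtered test, and the dashed line is the median of all genes tested. FIT2 is the member past the threshold on the higher side in both panels.

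Of the 8 tested genes the arrays with and without rapamycin did not overlap in newly synthesized RNA for FIT2 on the higher side and for FTR1, ARN2 and SIT1 on the lower side, where 2.96% and 92.9% of all genes did so. In steady-state RNA they did not overlap for FIT2 on the higher side (2.2% of all genes) and for FET3, FTR1, ARN1, ARN2 and SIT1 on the lower side (91.5%).

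**Figure D3:**
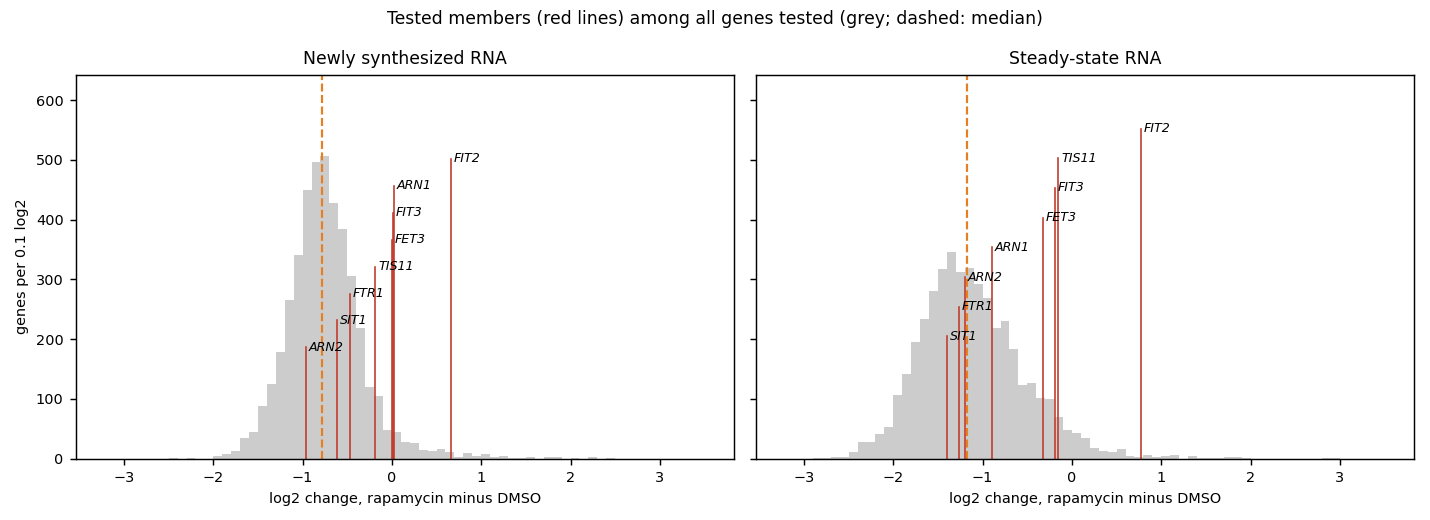
Histogram of the change with rapamycin (log2, horizontal axis) of 4359 genes tested, in newly synthesized RNA (left) and steady-state RNA (right), with the number of genes per bin on the vertical axis. Red lines mark the 8 tested iron regulon genes, their heights set only to separate the names, and the dashed line is the median. FIT2 stands in the upper tail of both panels.

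Whether a gene responded differently in the fractions was tested as the change in newly synthesized RNA minus that in steady-state RNA. limma called 0 of the 8 genes, where 0.138% of all genes were lower and 1.19% higher in this difference, and 3 of the 8 had an unadjusted p under 0.05. These were ARN1 (0.92, SE 0.32, adjusted p = 0.0982), FTR1 (0.80, SE 0.32, adjusted p = 0.128) and SIT1 (0.79, SE 0.32, adjusted p = 0.132), against a median of 0.39 over all genes. 3 genes passed without steady-state rapamycin replicate 2, FTR1 among them (adjusted p = 0.0166), where 1097 of all 4359 genes were higher, against 52 as reported. 2 passed without steady-state DMSO replicate 1, ARN1 (0.0473) and SIT1 (0.043), where 759 of all genes were higher. 5 passed under the loess scaling, where 2139 of all genes were higher. FIT2 had a difference of -0.12 (SE 0.30, adjusted p = 0.822) and TIS11 one of -0.03 (SE 0.31, adjusted p = 0.954).

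The fractions themselves were also compared, with directions that rest on the Taf4 fraction labels and turn if these are exchanged. With DMSO, newly synthesized RNA held less of FTR1 (3.11-fold lower), ARN1 (2.53-fold), ARN2 (2.16-fold), SIT1 (3.19-fold) and TIS11 (1.81-fold) than steady-state RNA, with adjusted p-values between 3.6e-08 and 0.000501 by limma. That is 5 lower of 8, and 0 higher by limma, also at an unadjusted p under 0.05, where 83.1% of all genes tested were lower and 2.57% higher. FIT2 (0.09, adjusted p = 0.705), FIT3 (0.31, adjusted p = 0.177) and FET3 (-0.39, adjusted p = 0.0872) did not pass and lay 1.36, 1.58 and 0.88 above the median of all genes, which was -1.27; under the loess scaling FET3 lay 0.12 above it. With rapamycin FTR1 (1.79-fold), ARN2 (1.84-fold), SIT1 (1.85-fold) and TIS11 (1.86-fold) were lower in newly synthesized RNA, and FIT3 was higher (0.52, SE 0.22, adjusted p = 0.0318), where 71.5% of all genes were lower and 1.1% higher. The call for FIT3 was lost without steady-state rapamycin replicate 2 (adjusted p = 0.188) or without newly synthesized rapamycin replicate 1 (0.114) or 2 (0.146), and that for FTR1 without steady-state rapamycin replicate 2 (0.0518). The S. pombe probe sets differed here too, with 362 lower and 584 higher of 1396 in DMSO and 53 lower and 93 higher in rapamycin, and their part in these results was not tested.

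By the means of the 4 groups, FET3, FTR1, SIT1, TIS11 and HMX1 had the same order of levels from low to high: newly synthesized RNA with rapamycin, newly synthesized RNA with DMSO, steady-state RNA with rapamycin, steady-state RNA with DMSO. For SIT1 the middle groups overlapped (9.10 to 9.30 against 9.29 to 9.67), and for FTR1 they lay 0.01 apart. For TIS11 the treatments overlapped in each fraction, and for FET3 the newly synthesized groups overlapped each other and the steady-state rapamycin group. FIT2 had another order, with both rapamycin groups above both DMSO groups, and FIT3 yet another, with both newly synthesized groups above both steady-state groups. Over the 8 arrays the 28 pairs among the tested genes had a median Pearson's r of 0.68, between -0.78 for FIT3 with TIS11 and 0.99, and the median was 0.88 over the pairs without FIT2 and FIT3. All pairs share the arrays and their scaling, so these are descriptions. Each of the 8 genes enters their median profile, which raises its own r, while other genes do not enter it. To this profile FTR1 had an r of 0.996, SIT1 of 0.979, ARN1 of 0.970, ARN2 of 0.895, TIS11 of 0.890 and FET3 of 0.874, while FIT2 had -0.51 and FIT3 -0.57. Most genes followed this profile over the 8 arrays: 0.367% of all genes tested had a higher r than FTR1, 12.2% than SIT1, 21.4% than ARN1 and 69.8% than FET3. Outside the regulon the most similar profiles over the 8 arrays were those of MRPL27, CAR1, PLB2, TAF7 and PKP2, each with an r of 0.997.

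Positions on assembly R64 set the genes apart from most others. FIT2 (chromosome XV, 1059531 to 1059992) and FIT3 (chromosome XV, 1060441 to 1061055) are adjacent, with 448 bp between them. Their neighbours FRE3 and YOR381W-A on one side and FRE5 on the other were too dim to be tested, while the next genes out were lower with rapamycin: RDR1 (-0.85 in newly synthesized and -1.82 in steady-state RNA) and YOR385W (-1.04 and -1.84), named after their values were seen. 6 of the 10 iron regulon genes lie within 40 kb of the outermost annotated gene of their chromosome, against 8.13% of all genes. Tested genes in that window had median changes of -0.78 in newly synthesized and -1.25 in steady-state RNA, beside -0.78 and -1.17 elsewhere. FIT1 lies on chromosome IV (1503314 to 1504900), ARN1 (19088 to 20971) and ARN2 (8351 to 10213) on chromosome VIII and SIT1 on chromosome V (27657 to 29543), all inside this window. FTR1 (chromosome V, 460526 to 461740), FET3 (chromosome XIII, 388822 to 390732), TIS11 (chromosome XII, 415801 to 416658) and HMX1 (chromosome XII, 552724 to 553677) lie outside it.

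Other genes of iron metabolism mostly fell with the rest. The counts of their lists stand beside 79.4% of all genes lower in newly synthesized RNA (median -0.78) and 86.8% in steady-state RNA (median -1.17). Of 10 tested other target genes of Aft1 and Aft2, 8 were lower in newly synthesized RNA (median -0.70), and 9 lower and 1 higher in steady-state RNA (median -1.35). ENB1, a transporter of the siderophore enterobactin named after its values were seen, was lower by 1.00 (SE 0.21, adjusted p = 0.000148, limma) and 1.44 (adjusted p = 2.24e-07) on the log2 scale in these fractions. FTH1, of vacuolar iron export, fell by 0.91 and 1.30, and ATX1, a copper chaperone that serves Fet3, fell by 0.74 and 0.78; with equal S. cerevisiae medians ATX1 lay above 0 in both (0.089 and 0.49). ISU1, the scaffold on which iron-sulphur clusters are built, was the exception in steady-state RNA (0.52, SE 0.22, adjusted p = 0.0246), with 0.28 (adjusted p = 0.219) in newly synthesized RNA. Its call was lost without steady-state DMSO replicate 2 or rapamycin replicate 2, and under 3 other settings.

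All 7 tested genes of iron sensing were lower in both fractions, with medians of -0.87 and -1.24. Among them were GRX3 (-0.93 and -1.02) and, named after its values were seen, AFT1 itself (-0.71 and -1.27). The call for AFT1 in newly synthesized RNA was lost without rapamycin replicate 2 (-0.60, adjusted p = 0.0698, limma) and on the values as deposited (-0.33, adjusted p = 0.09). Of 6 genes of other iron transport and storage 4 were lower in newly synthesized and 6 in steady-state RNA, including CCC1, which imports iron into the vacuole (-0.91 and -1.12). With equal S. cerevisiae medians AFT1 lay above 0 in newly synthesized RNA (0.12), and GRX3 (0.25) and CCC1 (0.15) in steady-state RNA. Iron-sulphur cluster assembly had 20 of 24 lower in each fraction (medians -0.89 and -1.27), and haem synthesis 8 of 8 (medians -1.10 and -1.55), with HEM2 at -0.96 and -1.95.

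Of 6 mRNAs known to be bound by Tis11, 4 were lower and 1 higher in newly synthesized RNA (median -0.60), and 3 lower in steady-state RNA (median -0.51). The higher one was ACO1, the aconitase of the citric acid cycle and an iron-sulphur protein, at 0.67 (SE 0.21, adjusted p = 0.0051, limma). It lost the call without newly synthesized DMSO replicate 1 or rapamycin replicate 2 (adjusted p up to 0.0747), and had 0.27 (adjusted p = 0.231) in steady-state RNA. Of the copper regulon 2 genes were tested: the copper transporter gene CTR1 (-0.27, adjusted p = 0.264, in newly synthesized RNA and -1.01, adjusted p = 0.000134, in steady-state RNA, limma) and REE1 (0.10, adjusted p = 0.662, and 0.02, adjusted p = 0.927). All 6 tested zinc regulon genes were lower in both fractions (medians -1.03 and -1.70).

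**Figure D4:**
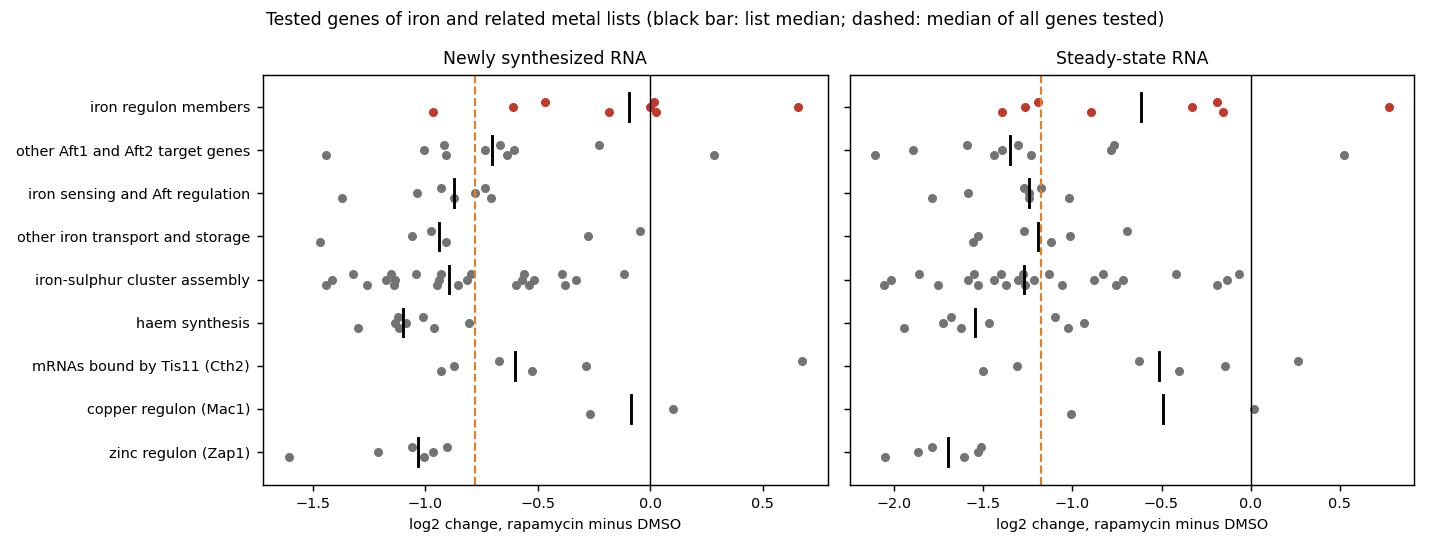
Change with rapamycin (log2, horizontal axis) of each tested gene of the iron, copper and zinc lists, in newly synthesized RNA (left) and steady-state RNA (right). Red points are the iron regulon genes described here, grey points the other lists, black bars list medians and the dashed line the median of all genes tested. The iron regulon genes spread from -0.96 to 0.66 on the left and from -1.40 to 0.77 on the right.

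On the uncopied Taf5-labelled arrays FIT2, FIT3, FET3 and TIS11 read lower, and HMX1 higher, than on every Taf4-labelled array. With 1 array of each kind there is no test. FIT2 read 5.40 on the Taf5-labelled newly synthesized rapamycin array and 6.15 on the Taf5-labelled steady-state DMSO array, where the 8 Taf4-labelled arrays lay between 9.11 and 10.04. The median gene differed by 0.44 and -0.88 on the log2 scale from the Taf4-labelled means of the same label. TIS11 read 4.23 and 4.76 on these arrays. MFA1, a pheromone gene of MATa cells, read 4.81 and 5.11 there, so the readings of FIT2 and TIS11 are not shown to be above background and no fold is given for them. FIT3 read 8.44 and 8.42, 3.25-fold and 2.61-fold lower. FET3 read 9.38 and 10.41, below the Taf4-labelled range of 10.61 to 11.16. HMX1 went the other way, with 9.15 and 9.91 against a Taf4-labelled range of 5.59 to 7.75. No fold is given here either, since MFA1 read 4.62 to 6.11 on the Taf4-labelled arrays.

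FIT2, FIT3, FET3 and TIS11 were thus below all 8 Taf4-labelled arrays on both uncopied arrays (2.86% of all 5449 genes were), and HMX1 was above all 8 (0.954% of all genes). Ranked by the gap between these readings and the nearest Taf4-labelled array, FIT2 was at rank 3 among the 156 genes on the lower side and HMX1 at rank 8 among the 52 on the higher side. FIT1, FTR1, ARN1 and ARN2 lay within the range of the Taf4-labelled arrays on both, with FIT1 at 6.18 and 6.43, FTR1 at 9.33 and 9.99, ARN1 at 6.97 and 7.15 and ARN2 at 7.23 and 7.49. SIT1 read 8.34 and 8.46, the first just below the lowest Taf4-labelled array and the second just above it. Past 2-fold, 4 of the 10 genes were lower and 3 higher on the newly synthesized rapamycin array (8.2% and 25.9% of all genes), and 6 lower and 1 higher on the steady-state DMSO array (42.6% and 1.45%). Both pairs of counts take in FIT2, TIS11 and HMX1, for which no fold is given. The first pair also takes in FIT1, with a Taf4-labelled mean of 4.55, so the counts describe readings and not levels shown to be above background. On the same arrays TAF4 read 9.86 and 10.49, above the Taf4-labelled range of 5.40 to 8.46, and TAF5 read 7.15 and 7.59, below the Taf4-labelled range of 7.97 to 10.55. Strain, culture and array cannot be told apart in this comparison.

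**Figure D5:**
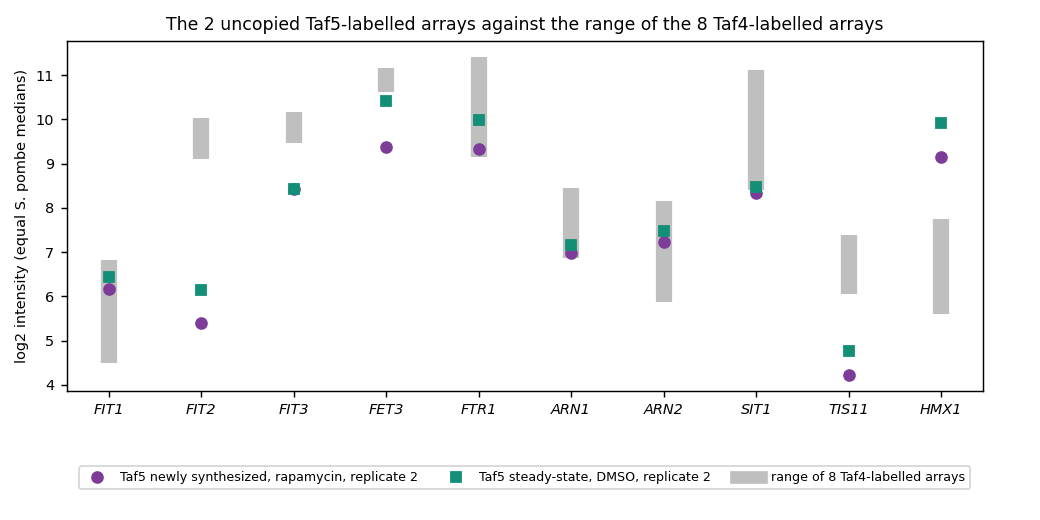
Log2 signal (vertical axis, S. pombe medians equal) of the 10 iron regulon genes on the uncopied Taf5-labelled arrays (purple circles, newly synthesized RNA with rapamycin; green squares, steady-state RNA with DMSO) beside the range of the 8 Taf4-labelled arrays (grey bars). FIT2, FIT3, FET3 and TIS11 lie below the bars on both arrays and HMX1 above them.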

How the data were processed

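RNA was hybridised to Affymetrix Yeast Genome 2.0 arrays, 1 sample and 1 label each. The deposited intensity values are on a linear scale, and per the submitters' processing notes Affymetrix Expression Console 1.4.1 was used; for background correction and summary method nothing is stated. The mean after trimming 2% at each end was 500 in Taf4-labelled and 100 in Taf5-labelled columns, so probe sets of both species were scaled together, which removes part of any common change. The table gives no detection calls, and the number of arrays limits the precision.

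The log2 of these values, with no pseudocount, was shifted to equal S. pombe medians, the brightest probe set was kept per gene, and the dimmest 20% of genes were left out. limma 3.58.1 in R 4.3.3 (lmFit, eBayes, two-sided, Benjamini-Hochberg over 4359 genes, threshold 0.05) fitted the 8 Taf4-labelled arrays, with 5 contrasts. The fit was tested on simulated data for the rapamycin change in newly synthesized RNA only. A small part of the genes changed there and the arrays did not differ in scaling, so it does not bear on the scaling. Of 10928 probe sets 7244 had 1 gene symbol, 1 several and 3683 none. Names and positions follow R64, and the genome build of the array design is not given in the sources used here.

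The members and lists were chosen with earlier results of these data known. Named genes are the 10 members, the brightest 3 of each other list, list genes past the threshold against the common direction, and the 5 genes most like the members' median profile; the text names a part of them. Replicate numbers were not taken as pairs: deviations of same-numbered samples correlated at 0.13, 0.17, 0.10 and -0.02. Alternatives were other scalings, filters, probe set means, an intensity trend, only the arrays compared, a replicate block and leaving out each array.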

Additional observations from a re-analysis of the deposited data

Results flagged for a closer look

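FET5, a ferroxidase of the vacuole membrane and an Aft1 target outside the 10 genes, changed differently with rapamycin in the fractions: it fell by 0.60 (SE 0.22) in newly synthesized RNA and by 1.90 (SE 0.22) in steady-state RNA on the log2 scale. The difference was 1.29 (SE 0.32, adjusted p = 0.0342, limma, n = 2 arrays a group). It did not pass without any 1 of 5 of the 8 arrays (adjusted p = 0.0565 to 0.387), with equal S. cerevisiae medians (0.0544) or with no filter (0.236), and the S. pombe probe sets differed in the same test, 339 lower and 117 higher of 1396.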

How the results depend on the processing

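The sign of many members depended on the scaling between arrays. With arrays scaled to equal S. cerevisiae medians, 0 members were lower and 5 higher with rapamycin in newly synthesized RNA, where 389 of 4359 genes were lower and 679 higher (3462 and 78 as reported), and likewise 0 and 5 in steady-state RNA, with 787 and 1393 genes (3785 and 62 as reported). Newly synthesized against steady-state RNA then had 0 members lower and 4 higher in DMSO (989 genes lower, 1637 higher) and 0 and 4 in rapamycin (799 and 1509). Changes whose sign turned, with the cause not tested, were in newly synthesized RNA FET3 0.82, FTR1 0.36, SIT1 0.21, TIS11 0.64, ATX1 0.089, FET5 0.22 and AFT1 0.12, and in steady-state RNA FIT3 1.08, FET3 0.94, FTR1 0.0020, ARN1 0.37, ARN2 0.074, TIS11 1.12, ATX1 0.49, GRX3 0.25 and CCC1 0.15. In the difference between the fractions' changes these were FIT3 -0.24, FET3 -0.12 and ARN2 -0.21. Between the fractions they were, in DMSO, FET3 0.99, ARN1 0.037, ARN2 0.27 and TIS11 0.52, and, in rapamycin, FIT2 0.90, FET3 0.87, FTR1 0.093, ARN1 0.52, ARN2 0.051, SIT1 0.045 and TIS11 0.040. FIT2 stayed above 0 with rapamycin in both fractions under all scalings run.

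On the values as deposited 1 member was lower and 2 higher in newly synthesized RNA (2114 and 188 genes), 259 genes were higher in steady-state RNA, and 2 members were higher in newly synthesized than in steady-state RNA in DMSO. Signs turned for FET3 (0.38) and TIS11 (0.19) in newly synthesized RNA, for FIT3 (0.34), FET3 (0.20) and TIS11 (0.38) in steady-state RNA, and between the fractions for FET3 in DMSO (0.041) and for FIT2 (0.25) and FET3 (0.22) in rapamycin. Loess scaling along the S. pombe probe sets gave 6 members lower and 0 higher with rapamycin in steady-state RNA (4155 and 29 genes), FIT3 (-0.92) and FET3 (-1.28) being called lower there, 5 higher in the difference between the fractions' changes (2139 genes), 8 lower in newly synthesized than in steady-state RNA in DMSO and 0 higher in rapamycin. It turned FET3 in newly synthesized RNA (0.077), ACO1 in steady-state RNA (-0.90), the difference for FIT2 (0.54), and FIT2 (-0.79) and FIT3 (-0.68) between the fractions in DMSO. The brighter S. pombe probe sets gave 0 members higher in newly synthesized than in steady-state RNA in rapamycin and turned FET3 in newly synthesized RNA (0.039), the differences for FIT2 (0.061) and TIS11 (0.14), and FIT2 (-0.25) and FIT3 (-0.022) between the fractions in DMSO.

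The 40% filter, which also left out ARN1, ARN2 and TIS11, gave 2 members lower with rapamycin in steady-state RNA, and 2 lower in newly synthesized than in steady-state RNA in each treatment. With the replicate number as a block 3 members were higher in the difference between the fractions' changes, ARN1 (adjusted p = 0.0103), SIT1 (0.0203) and FTR1 (0.0241), as were 1004 genes, against 52 without it, and FTR1 was lower in newly synthesized RNA (adjusted p = 0.0154); the block moved ARN1 between the fractions in rapamycin past the threshold (0.0256) and FET3 in DMSO.

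Without 1 array at a time, 0 to 2 members were lower and 0 to 1 higher with rapamycin in newly synthesized RNA, 0 to 3 higher in the difference between the fractions' changes (0 to 1097 genes), and 3 to 5 lower and 0 to 1 higher in newly synthesized than in steady-state RNA in rapamycin. Changes ranged over both signs for FET3 (-0.12 to 0.12), FIT3 (-0.0057 to 0.038) and ARN1 (-0.11 to 0.16) in newly synthesized RNA, for the differences of ARN2 (-0.10 to 0.56) and TIS11 (-0.18 to 0.12), and between the fractions for FIT2 in DMSO (-0.0016 to 0.17) and FIT2 (-0.10 to 0.039) and FET3 (-0.17 to 0.049) in rapamycin. Depth cannot be given for arrays; 2 arrays a group and the spike-in, which differed in every comparison but that of newly synthesized RNA, limit what these values show.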
